A study of Mus musculus with 9 samples.

Results

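The sites compared here are those bound by the glucocorticoid receptor (GR) and the mineralocorticoid receptor (MR) in N2A cells after corticosterone (CORT) had been given and washed out. N2A is a mouse neuroblastoma cell line. Members were chosen by condition alone. All MACS2 peaks of EGFP-GR and of mCherry-MR after washout were taken, except those that touched a coding exon of Nr3c1 (GR) or Nr3c2 (MR), where reads from the plasmids would also map. This left 228 of 246 GR peaks and 4855 of 4885 MR peaks, out of 30508 peaks in the 6 lists of the series. Peaks of the 2 receptors that shared at least 1 bp were joined into a site. The join gave 4901 sites, of which 169 were held by both receptors, 4673 by MR only and 59 by GR only.

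All cells were transiently transfected with plasmids for both tagged receptors, so that each receptor was present above its natural level and in the same culture. According to the study's methods the receptors were of rat, whereas the deposited description names mouse. N2A cells have no MR of their own and some GR, and the tags, not the native proteins, were precipitated. The washout cells had 100 nM CORT for 20 min, were washed 2 times and were kept for 40 min more without CORT. The other groups used here were the same cells after vehicle and after 100 nM CORT for 20 min. Input chromatin of each treatment, without precipitation, gave border pairs only. Each condition had 3 replicates that the authors pooled into 1 list, so no value below has a replicate error and no test between conditions could be made. The files hold no expression values, so the neuroblast identity of the cells could not be checked against marker genes.

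GR and MR are ligand-activated transcription factors that move to the nucleus and bind chromatin when they hold CORT. Their DNA-binding domains are nearly alike, and both recognise the glucocorticoid response element (GRE), an inverted repeat whose arms are AGAACA and TGTTCT separated by 3 bases. MR holds CORT with higher affinity than GR does, so the receptors are known for different occupancy when the hormone is low.

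GREs at sites of each class show the sequence both receptors had available. Each stretch below is the best GRE match within 100 bp of a summit, the position of highest signal in a peak. It is read 5′ to 3′ on the forward strand of GRCm38 (mm10), with the 15 bases of the GRE in capitals and 6 bases of flank to each side. The first 6 lie at sites of both receptors, the next 6 at MR-only peaks and the last at a GR-only peak. They were picked for a match with at most 1 mismatch or for the gene they lie in.
near Ddit4, chr10:59974267-59974293, both receptors: agagccAGAACACAATGTTCTcagctc
near Prr5, chr15:84639633-84639659, both receptors: tttgggAGAACACGCTGTTCCaggcca
Cuedc1, chr11:88113725-88113751, both receptors: ctgaggAGGACAGCCTGTTCTgagcca
Plec, chr15:76208300-76208326, both receptors: gagcctAGAACAACATGTCCTcccaca
Ddc, chr11:11844617-11844643, both receptors: ttggccAGGACATTCAGTCCTtggcct
Cdkn1a, chr17:29094693-29094719, both receptors: ttggcgGGCACAGTATGTTCCcaggga
Fkbp5, chr17:28420315-28420341, MR only: gagcacAGAACACCCTGTTCTgaatgt
Per1, chr11:69097070-69097096, MR only: gccaagAGAACACGATGTTCCctagtg
Th, chr7:142918831-142918857, MR only: ggctacAGCACACAGTGTTCTccccag
Pnmt, chr11:98386083-98386109, MR only: gaggccAGAACAGAGTGTCCTttctgg
Usp2, chr9:44079083-44079109, MR only: tatggaAGGACAAGCTGTTCCcactga
Syt1, chr10:108896714-108896740, MR only: cagcagAGAACAGAATGTTTGtttcga
Prkca, chr11:108224411-108224437, GR only: gttccaAGGACATCAGCTTCTatcaga
The stretches near Ddit4 and in Fkbp5 matched all 12 fixed positions of the GRE. Those near Prr5 and in Cuedc1, Plec, Per1, Th and Pnmt had 1 mismatch, those in Usp2 and Syt1 had 2, and those in Ddc, Cdkn1a and Prkca had 3.

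After washout nearly all MR sites were free of a GR peak, whereas most GR sites had an MR peak. Of the GR peaks, 169 of 228 (74.1%, 95% Wilson interval 68.1% to 79.4%) overlapped an MR peak. Of the MR peaks, 182 of 4855 (3.75%, 3.25% to 4.32%) overlapped a GR peak. A site held 1 MR peak in 157 of the 169 cases and at most 3. Intervals here cover counting error only, and peaks are not replicates. No read counts were in the peak lists, from which the depth of a library could not be computed, and read totals given in the study were not used here. A site with no peak was below what that list could detect. Column 6 of the lists is −log10 p against input, which grows with depth. It was therefore used only to rank peaks within a list. It ran from 5.67 to 32.07 for the GR peaks kept and from 4.89 to 57.03 for the MR peaks.

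Part of the GR list lay where signal had also been called without hormone or without precipitation. A vehicle peak of either receptor or a border pair of the washout input overlapped 38 of the 169 GR peaks at sites of both receptors (22.5%, 16.8% to 29.4%) and 12 of the 59 GR-only peaks (20.3%, 12% to 32.3%). The same held for 44 of the 182 MR peaks at sites of both (24.2%, 18.5% to 30.9%) and for 28 of the 4673 MR-only peaks (0.599%, 0.415% to 0.865%). These peaks stood at the head of the GR list, with 10 of its 12 strongest and 29 of its 50 strongest, and only 1 of the 100 strongest MR peaks was among them. They lay at repeat-masked loci more often, since 20 of 30 such GR peaks on assembled chromosomes at sites of both had a masked summit, against 6 of 129 of the others. Their part in the overlap of the receptors was not tested, and many of the results below are also given without them. Without them 178 GR and 4783 MR peaks remained, with 131 sites of both receptors, 47 of GR only and 4645 of MR only, and 73.6% (66.7% to 79.5%) of the GR peaks and 2.89% (2.45% to 3.4%) of the MR peaks were shared.

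The share of MR peaks with a GR peak was highest among the strongest MR peaks. It was 17 of the 50 strongest (34.0%, 22.4% to 47.9%), 31 of the 100 strongest (31.0%, 22.8% to 40.6%), 77 of the 500 strongest (15.4%, 12.5% to 18.8%) and 109 of the 1000 strongest (10.9%, 9.12% to 13.0%). With the MR list cut by rank into 5 groups of equal size the share was 11.2%, 3.30%, 1.96%, 1.44% and 0.824% from the strongest to the weakest. The interval of the strongest group, 9.39% to 13.4%, lay above those of all the others. The order was the same without the sites of vehicle or input signal, at 8.99%, 2.40%, 1.46%, 1.05% and 0.523%. In the GR list the share with an MR peak ran from 84.8% (71.8% to 92.4%) in the strongest group to 64.4% (49.8% to 76.8%) in the weakest, and these intervals overlap.

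**Figure D1:**
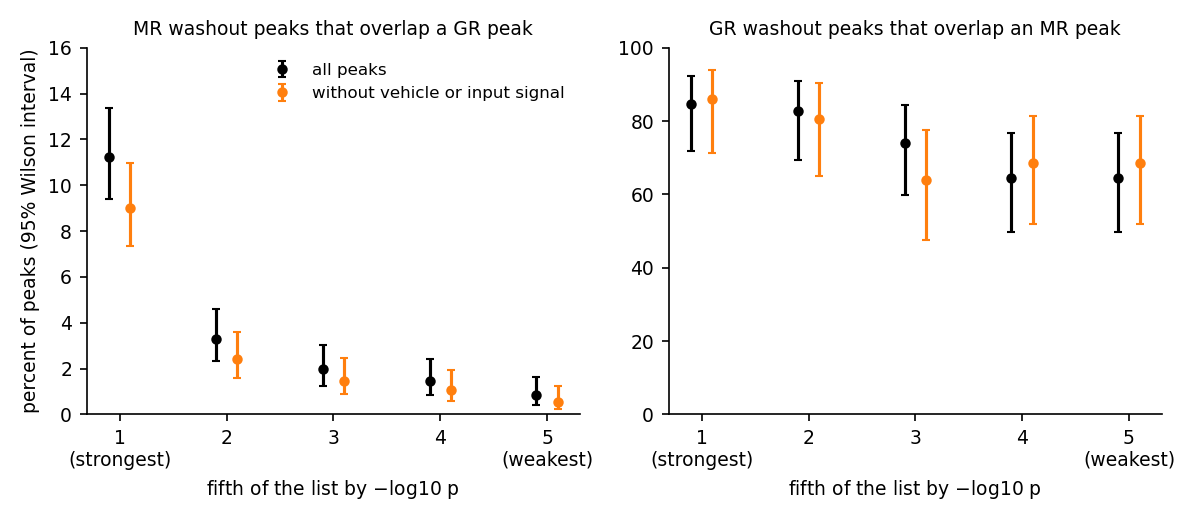
Percent of MR washout peaks that overlap a GR washout peak (left) and of GR washout peaks that overlap an MR washout peak (right), by rank group (5 groups of equal size per list, by −log10 p), for all peaks (black) and for those without vehicle or input signal (orange). Points are percentages and bars are 95% Wilson intervals. The MR share falls from 11.2% to 0.824%, and the GR share stays at or above 63.9%.

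At the shared sites the strength of the GR peak said little about that of the MR peak. Spearman's rho between the −log10 p values of the receptors was −0.0481 over the 169 sites and 0.0900 over the 131 sites without vehicle or input signal, given as a description of sites from the same libraries. The MR peak ranked among the strongest 10% of the MR list at 77 of the 169 sites and among its weaker 50% at 21. The median rank of the MR peak was 604 of 4855, and 460 at the 131 sites. The MR −log10 p had a median of 14.9 at the MR peaks of both receptors and of 9.01 at the MR-only peaks, with upper quartiles of 22.6 and 11.8. The MR peaks of both were also wider, with a median of 119.5 bp against 69.0 bp. A wider peak meets the 1 bp join more readily, and the part of the join in this contrast was not tested. The GR peaks of both had a median −log10 p of 10.5 and a width of 128.0 bp, against 9.27 and 108.0 bp for the GR-only peaks. Without vehicle or input signal the MR medians were 16.2 and 141 bp at peaks of both and 9.01 and 69.0 bp at MR-only peaks. The GR medians were then 9.91 and 121 bp at peaks of both and 9.10 and 107 bp at GR-only peaks.

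**Figure D2:**
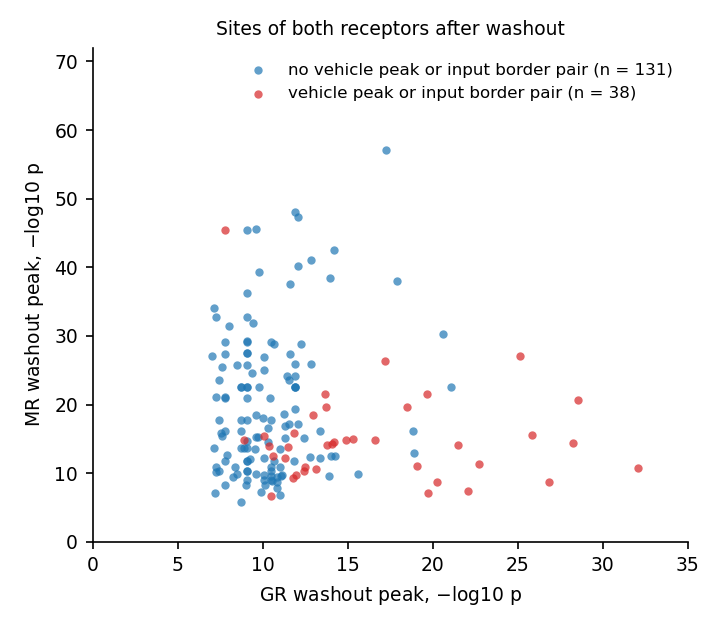
GR (horizontal axis) and MR (vertical axis) −log10 p at the 169 sites of both receptors after washout, with 1 point per site. Red points are the 38 sites with a vehicle peak or an input border pair and blue points the 131 others. The GR peaks above a −log10 p of 21.1 are all red, and all but 1 of the MR peaks above 30 are blue.

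The distance between the summits of the receptors was limited by the join, which required the peaks to overlap. Median widths at the shared sites were 128.0 bp for GR and 124.0 bp for MR. No reference offset for overlapping peaks of such widths was computed, so the offsets are a description only. The summit offset had a median of 27.0 bp (95% interval 19 to 33 bp) and was at most 50 bp at 118 of the 169 sites (69.8%, 62.5% to 76.2%). At the 38 sites with vehicle or input signal the median offset was 5.00 bp (3.00 to 22.0 bp), and at the 131 others 32.0 bp (22.0 to 42.0 bp).

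The strongest GR peaks at sites of both receptors lay mostly where vehicle and input signal was also called. The 3 strongest GR peaks (−log10 p 32.07, 28.53 and 28.23) lay together between chr2:98662624 and chr2:98667322, at the predicted genes Gm10800 and Gm10801, with MR peaks of 10.81, 20.63 and 14.40. The next 6 were at chr9:35305200-35305515 in Gm33838, on the unplaced sequence GL456392, at chrX:143482968-143483139 with Pak3 as the nearest protein-coding gene, in Chl1, in Gm21738 and on GL456389. All 9 had vehicle peaks and input border pairs. So did the 12th, in Cdk5rap2. The GR peaks that were listed 10th and 11th had neither. One was at the promoter of Rpl27, which encodes a protein of the large ribosomal subunit (chr11:101442145-101442255, GR 21.09, MR 22.55). The other was in an intron of Ptpn11, which encodes the tyrosine phosphatase SHP2 (chr5:121187845-121188009, GR 20.61, MR 30.32).

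Further down the GR list, the strongest sites without vehicle or input signal were named after their values were seen. At the promoter of Upf3a, a factor of nonsense-mediated decay, and within 5 kb of Cdc16, the GR peak had 18.90 and ranked 16 and the MR peak had 12.90 and ranked 1047. In an exon at Nos3, the endothelial nitric oxide synthase, and Atg9b, the values were 18.82 and 16.22. In an intron of Lrig1, which encodes an inhibitor of receptor tyrosine kinases, they were 17.91 and 38.07. The strongest MR peak of the whole list, 57.03 at chr8:123786324-123786584, was shared with a GR peak of 17.26 at rank 21, and the nearest start of a protein-coding gene was that of Rab4a at 19544 bp. At Nfkbia, which encodes the inhibitor IκBα of NF-κB, the GR peak had 14.17 (rank 32) and the MR peak 42.46 (rank 15), both in an intron. A second shared site lay 18883 bp from its start, with a GR peak of 7.63 (rank 210) and an MR peak of 15.49 (rank 604). In Plec, which encodes the cytoskeletal linker plectin, the order was the other way, with a GR rank of 36 and an MR rank of 2252. In Rara, the retinoic acid receptor alpha, the GR peak had 13.35 (rank 41 of 228) and the MR peak 16.22 (rank 514 of 4855). The lists differ in length, so the order seen in Plec is not claimed for Rara.

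Around Ddit4, an inhibitor of mTOR signalling that glucocorticoids are known to induce, 3 sites of both receptors lay more than 5 kb from the gene. The MR peaks had 45.41 (rank 9), 36.27 (rank 30) and 22.62 (rank 185), and the GR peaks 7.77, 9.10 and 8.73, at ranks 197, 146 and 179. The first of these, at 22453 bp from the start of Ddit4, holds the GRE without mismatch shown above and also had an MR vehicle peak, with no input border pair. All 3 had strong MR peaks beside GR peaks in the lower part of the GR list.

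MR-only peaks included some of the strongest peaks of the MR list. The first was in an intron of Col4a2, a type IV collagen chain of basement membranes (chr8:11382059-11382220, −log10 p 56.57, rank 2). The others among the 12 strongest were in 5330439M10Rik (51.87), near the pseudogene Rpsa-ps2 (47.60), at 17556 bp from the start of Pgf, a vascular growth factor (47.28), near Trub1 (45.41), in an exon at Mrtfb, a coactivator of serum response factor (43.55), in an intron of Fkbp5 (43.55), near Ctnnbl1 (42.97), in Nsmce2 (41.71), in the laminin gene Lamc1 (41.04), where GR shared another and weaker MR peak, within 5 kb of a, the agouti gene (39.69), and in Syt1, which encodes the calcium sensor of synaptic vesicle release (38.07). None of the 12 had a vehicle peak or an input border pair. All 12 had a CORT peak of GR and one of MR, and 11 of them had a GRE with at most 3 mismatches.

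**Figure D3:**
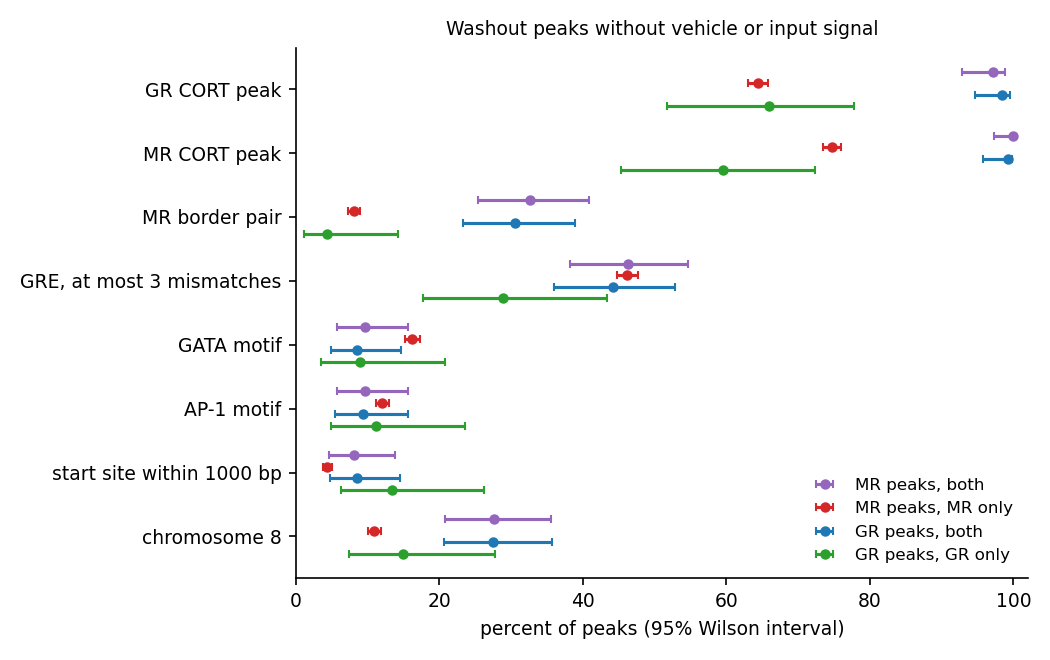
Percent of washout peaks with each feature, for peaks without vehicle or input signal, by receptor and class of site. Points are percentages and bars are 95% Wilson intervals. The peaks of both receptors stand apart from the MR-only and the GR-only peaks in CORT peaks and in MR border pairs. GR-only peaks have no MR washout peak by definition, and MR border pairs come from the same washout reads. Their low share of MR border pairs is therefore tied to the class rule. Against MR-only peaks, the MR border pair intervals are apart in the strongest rank group of MR peaks and overlap in the weaker groups. The GRE intervals of the MR classes and of the GR peaks of both receptors overlap.

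Sites kept by both receptors were almost all sites of both before washout. Without vehicle or input signal, a CORT peak of GR lay at 134 of 138 MR peaks of both receptors (97.1%, 92.8% to 98.9%) and at 2993 of 4645 MR-only peaks (64.4%, 63.1% to 65.8%), a difference of 32.7 points (Newcombe 95% interval 28.1 to 34.9). A CORT peak of MR lay at 138 of 138 and at 3471 of 4645 (74.7%, 73.5% to 76.0%). Of the GR-only peaks, 31 of 47 (66.0%, 51.7% to 77.8%) had a GR CORT peak and 28 of 47 (59.6%, 45.3% to 72.4%) an MR CORT peak. The GR CORT peaks under the MR peaks of both receptors stood at a median percentile of 95.3 of the GR CORT list, those under MR-only peaks at 75.5 and those under all GR-only peaks at 70.1. GR CORT peaks with no GR washout peak had a median percentile of 45.6.

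The difference in CORT peaks was also seen within the strongest rank group of the MR peaks, and in the next group the intervals overlapped. In the strongest of 5 equal groups of the MR peaks without vehicle or input signal, 86 of 86 peaks of both had a GR CORT peak (100.0%, 95.7% to 100.0%), against 765 of 871 MR-only peaks (87.8%, 85.5% to 89.8%). In the next group the counts were 21 of 23 (91.3%, 73.2% to 97.6%) and 672 of 934 (71.9%, 69.0% to 74.7%). An MR border pair lay in 44 of 86 (51.2%, 40.8% to 61.5%) against 233 of 871 (26.8%, 23.9% to 29.8%) in the strongest group. In the next group it lay in 1 of 23 (4.35%, 0.772% to 21%) against 60 of 934 (6.42%, 5.02% to 8.18%), and in the 3 weaker groups in 0 of 14, 0 of 10 and 0 of 5 peaks of both, against 3.29%, 3.28% and 2.00% of MR-only peaks. In the strongest group the median −log10 p was 22.6 at the peaks of both and 16.2 at the MR-only peaks. The median widths were 171 bp and 111 bp, so within it the classes still differed in strength and in width. A wider peak overlaps a CORT peak or a border pair more readily, and the part of width in these shares was not tested.

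The share of MR peaks with a GRE differed between shared and MR-only sites when all peaks were counted, and the interval of the difference included 0 once those with vehicle or input signal were left out. Without vehicle or input signal, a GRE with at most 3 mismatches lay within 100 bp of the summit at 63 of 136 MR peaks of both receptors (46.3%, 38.2% to 54.7%) and at 2142 of 4639 MR-only peaks (46.2%, 44.7% to 47.6%), a difference of 0.150 points (−8.14 to 8.64). Windows of the same width 1000 bp to either side held one in 15.1% (11.3% to 19.8%) and 15.4% (14.7% to 16.2%). With the sites of vehicle or input signal kept in, the share at the peaks of both was 38.4% (31.4% to 45.8%), and its difference from the MR-only peaks was −7.68 points (−14.8 to −0.0960), and with at most 4 mismatches the difference was −8.96 points (−16.0 to −2.99). Of the 36 peaks of both with such signal, 3 held a GRE with at most 3 mismatches. In the strongest of the 5 groups the share was 45 of 86 (52.3%, 41.9% to 62.5%) against 525 of 869 (60.4%, 57.1% to 63.6%). MR summits lay a median of 14.0 bp from the GRE at sites of both and 18.0 bp at MR-only sites. GR summits at sites of both lay 36.0 bp from it.

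GR-only peaks held a GRE less often than MR-only peaks, at 13 of 53 (24.5%) against 2145 of 4658 (46.05%) of all peaks of each class on assembled chromosomes, a difference of 21.5 points (8.41 to 31.2). The windows were centred on GR summits in the first class and on MR summits in the second. These counts include peaks with vehicle or input signal, of which 0 of 8 GR-only and 3 of 19 MR-only peaks held a GRE. Without them the MR-only share was 46.2%, and no interval of the difference was computed. Among GR-only peaks free of vehicle or input signal, 13 of 45 (28.9%, 17.7% to 43.4%) held one with at most 3 mismatches, 2 of 45 one with at most 2, and none one with at most 1. Among the GR peaks of both the first share was 57 of 129 (44.2%, 35.9% to 52.8%), and the difference of 15.3 points had an interval that included 0 (−1.38 to 29.4). With at most 4 mismatches the shares were 62.2% and 83.7%, a difference of 21.5 points (6.86 to 37.1). The windows beside GR-only summits held a GRE in 12 of 90 cases (13.3%, 7.80% to 21.9%).

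The GATA motif, spelled AGATAA, is the core bound by GATA factors and was searched on both strands. It lay at 13 of 136 MR peaks of both (9.56%, 5.67% to 15.7%) and at 752 of 4639 MR-only peaks (16.2%, 15.2% to 17.3%), a difference of −6.65 points (−10.7 to −0.456). In the flanking windows it lay at 14.3% (10.7% to 19%) and 10.7% (10.1% to 11.3%). The AP-1 motif, TGANTCA, is the site of Fos and Jun dimers. It lay at 9.56% (5.67% to 15.7%) and 12% (11.1% to 13.0%), against 6.25% and 5.85% in the flanks, and the difference of −2.43 points had an interval of −6.43 to 3.75. A match is a description of the sequence and not of bound factors.

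Border pairs, which MACE places where the exonuclease stopped on opposite strands, were mostly found outside the GR peaks. Of 540 GR border pairs outside the receptor exons, 53 lay in a GR peak, 324 (60%, 55.8% to 64.1%) overlapped a border pair of the washout input, and 230 of all 568 were on unplaced sequences. Of 1647 MR border pairs, 500 (30.4%, 28.2% to 32.6%) lay in an MR peak and 436 (26.5%, 24.4% to 28.7%) overlapped an input border pair. An MR border pair lay in 45 of 138 MR peaks of both receptors without vehicle or input signal (32.6%, 25.4% to 40.8%) and in 374 of 4645 MR-only peaks (8.05%, 7.30% to 8.87%). All but 1 of the 45 ranked in the strongest of the 5 equal groups of MR peaks. A GR border pair lay in 4 of 131 GR peaks of both (3.05%, 1.19% to 7.59%) and in 1 of 47 GR-only peaks. The 4 were near Pak6, near Zfp366, near Trim2 and at AC149090.1 on the unplaced sequence JH584304, with widths of 54, 66, 43 and 12 bp.

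The widths of the MR border pairs overlapped widely between the classes. The median was 37.0 bp (quartiles 28.0 and 47.5) in 90 pairs in all MR peaks of both and 34.5 bp (20 and 57) in 410 pairs in all MR-only peaks. In peaks free of vehicle or input signal that held a GRE, the border pair overlapped it in 23 of 35 cases at sites of both (65.7%, 49.2% to 79.2%) and in 142 of 234 at MR-only sites (60.7%, 54.3% to 66.7%).

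GR-only sites ranked lower in the GR list, with a median rank of 142 of 228 against 99 for the GR peaks of both. Without vehicle or input signal the gap was smaller, with median ranks in the same full list of 146 and 125. Of the 59, 8 had an MR washout peak within 100 bp, 13 within 1000 bp and 26 within 10 kb. Of those free of vehicle or input signal, 25 of 47 had CORT peaks of both receptors, 6 of GR alone, 3 of MR alone and 13 (27.7%, 16.9% to 41.8%) none. The 8 strongest GR-only peaks divided evenly. A group of 4 had vehicle signal, with −log10 p of 17.37 and 15.38 at Gm10801 and Gm10800, 16.12 on JH584304 and 15.33 at Gm10718. The other 4 were at 31919 bp from the start of Ctnnbl1 (13.75), in an exon of the collagen gene Col23a1, 1706 bp from the start of Phykpl (12.98), in an intron of Parvb, which encodes the focal adhesion protein beta-parvin (12.85), and in an intron of the zinc transporter gene Slc30a5 (12.81). Their ranks in the GR list were 38, 44, 46 and 49, and the nearest MR peaks lay 13266, 11964, 36855 and 10313 bp away. The first of these neighbours was the MR-only peak near Ctnnbl1 at rank 14 of the MR list. In Prkca, the gene of protein kinase C alpha, the GR-only peak (10.47, rank 99) ended 9 bp from an MR peak. In Dkk3, a secreted protein of the dickkopf family, it lay 6 bp from one.

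Most sites of every class lay in or near genes and few at start sites. Among peaks free of vehicle or input signal, the summit was in a gene at 66.7% (58.4% to 74%) of MR peaks of both, 63.8% (62.4% to 65.2%) of MR-only peaks and 68.1% (53.8% to 79.6%) of GR-only peaks. A start of a protein-coding gene lay within 1000 bp at 11 of 137 MR peaks of both (8.03%, 4.54% to 13.8%), 202 of 4639 MR-only peaks (4.35%, 3.80% to 4.98%) and 6 of 45 GR-only peaks (13.3%, 6.26% to 26.2%). The first 2 differed by 3.68 points (0.132 to 9.48).

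Chromosome 8 held more of the shared sites than of the MR-only sites. It carried 44 of the 228 GR peaks (19.3%, 14.7% to 24.9%) and 544 of the 4855 MR peaks (11.2%, 10.4% to 12.1%). Without vehicle or input signal it held 38 of 138 MR peaks of both (27.5%, 20.8% to 35.5%) and 504 of 4645 MR-only peaks (10.9%, 9.99% to 11.8%), a difference of 16.7 points (9.86 to 24.7). The span of Gm20388, a long annotated transcript at chr8:119910841-124345722 that covers many genes, held 19 GR and 103 MR peaks, and 18 of these GR peaks were shared. Border pairs of the washout input were also densest on chromosome 8, at 9.87 per Mb against 0.382 to 2.67 per Mb on the other chromosomes, though none lay in its 36 GR peaks at sites of both. The part of the input density in the peaks of this chromosome was not tested. Without chromosome 8, 72.3% (65.4% to 78.2%) of GR peaks and 3.34% (2.84% to 3.92%) of MR peaks were shared.

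Genes were assigned a peak that lay in them or within 5 kb, among 55536 genes of GENCODE M21. After washout 167 genes (0.301%) had peaks of both receptors, 2827 (5.09%) of MR only and 30 (0.0540%) of GR only. Among the 22028 protein-coding genes the counts were 126 (0.572%), 1941 (8.81%) and 20 (0.0908%). In 144 of the 167 genes of both a GR peak overlapped an MR peak, and in 23 the receptors were at different places. Genes of both had at least 2 MR peaks in 105 of 167 cases (62.9%, 55.3% to 69.8%), against 793 of 2827 MR-only genes (28.1%, 26.4% to 29.7%). Gene length was not compared between these classes, so its part in this contrast was not tested. Of the 197 genes with a GR peak, 30 had no MR peak. A shared site places its gene among those of both by the assignment rule itself. Where no GR peak overlapped an MR peak, 23 genes had both receptors and 30 had GR only. Without vehicle or input signal 178 genes had a GR peak, and 150 of them also had an MR peak.

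Of the 4 genes measured by PCR in the study and Fkbp5, whose binding it displayed, Ddc had peaks of both receptors and the others of MR only. Ddc encodes the aromatic amino acid decarboxylase that makes dopamine and serotonin. Its GR peak at chr11:11844599-11844719 (12.10, rank 56) lay inside the MR peak at chr11:11844538-11844822 (47.28, rank 6), in an intron, and 3 more MR peaks of 19.34, 7.05 and 6.42 had no GR peak. Fkbp5 encodes a co-chaperone of Hsp90 that lowers the affinity of GR for hormone. After CORT it carried 12 peaks of GR and 15 of MR, and the washout lists held 11 MR peaks and no GR peak there. Of the 11 MR peaks, 9 lay within 6 kb of the gene start. They were led by chr17:28512679-28513154 (43.55, rank 12) in the first part of the gene and chr17:28518138-28518278 (29.26, rank 73) just upstream of it, and the third strongest was at chr17:28420217-28420388 (25.81, rank 122), 97171 bp from the start, with the GRE without mismatch shown above. Syt2, a synaptotagmin gene, had 1 MR peak (19.34, rank 306), Dusp4, a phosphatase of MAP kinases, 1 (11.19, rank 1518) and Sgk1, a kinase that raises epithelial sodium transport, 1 (8.71, rank 2995) downstream of the gene. With CORT present these 3 genes had 2 GR peaks each, and 5, 3 and 2 of MR.

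**Figure D4:**
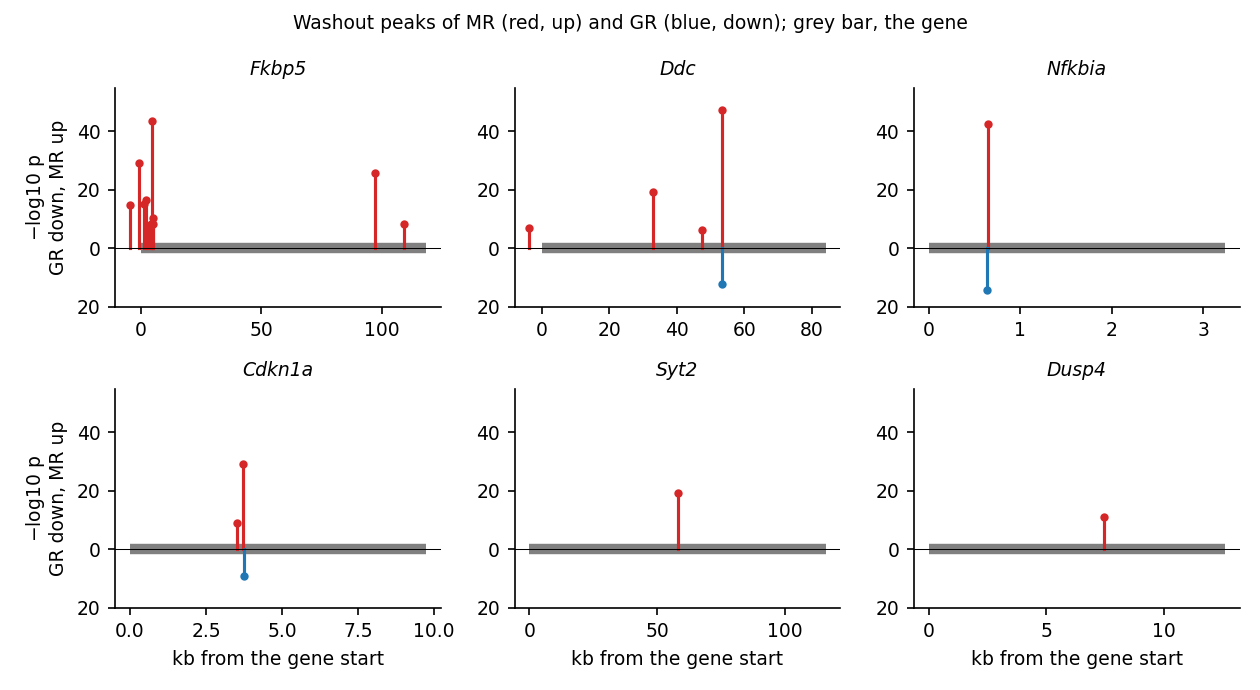
Washout peaks of MR (red, upward) and GR (blue, downward) in and within 5 kb of 6 genes. The horizontal axis is the distance from the gene start in kb, the vertical axis is −log10 p in each list and the grey bar is the gene. In Ddc, Nfkbia and Cdkn1a the GR peak lies at the strongest MR peak, and Fkbp5, Syt2 and Dusp4 have MR peaks only.

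Among 126 genes in 7 lists of regulators, 4 (3.17%, 1.24% to 7.88%) had peaks of both receptors, 30 (23.8%, 17.2% to 32.0%) of MR only and none of GR only, to be read beside the 0.572%, 8.81% and 0.0908% of protein-coding genes above. The lists overlap in part and were chosen with earlier results of these data known, so the counts describe them only.

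The list of glucocorticoid-induced regulators had 2 of 30 genes with both receptors and 12 with MR only. Nfkbia and Cdkn1a were the pair with both. Cdkn1a, which encodes the cell cycle inhibitor p21, had a GR peak of 9.10 (rank 146) inside an MR peak of 29.07 (rank 79), 3768 bp into the gene. The strongest with MR only were Fkbp5, Zfp36, an mRNA decay factor (31.54, rank 56), Hif3a, a hypoxia-inducible factor (27.91, rank 88), Zbtb16, a zinc finger repressor with 5 MR peaks (25.81, rank 122), and Per1 (16.53, rank 481). The other MR-only genes of the list were weaker, down to Ddit4 (6.42, rank 4255) by its peak within 5 kb.

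Of 22 circadian clock genes, 4 had MR only and none had GR. Per1, a repressor of the clock, had the stronger of its 2 MR peaks 1865 bp from its start, at the GRE with 1 mismatch shown above. The repressor genes Cry2 (14.71, rank 685) and Per2 (8.28, rank 3089) were also among them. Of 19 genes of receptor chaperones and co-chaperones, Fkbp5 was the 1 with a peak. Of 17 genes of SGK and epithelial sodium transport, 5 had MR only. They were Usp2, a deubiquitinase (22.19, rank 222), Scnn1b, the beta subunit of the epithelial sodium channel (12.25, rank 1111), the kinase genes Wnk1 (11.79) and Sgk3 (10.08), and Sgk1.

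Of 12 catecholamine genes, 1 had both receptors and 4 had MR only. Beside Ddc, MR peaks lay 357 bp upstream of Pnmt, which makes adrenaline (26.94, rank 103), 12283 bp downstream of the start of Th, the rate-limiting enzyme of catecholamine synthesis (24.20, rank 153), and in Slc18a1, the vesicular monoamine transporter VMAT1 (22.55, rank 198). The peaks of Pnmt and Th each had a GRE with 1 mismatch within 3 bp of the summit. Of 15 sympathetic neuroblast transcription factors, 4 had MR only, among them Hand1 (13.23), Klf7 (11.79) and Gata3 (11.48). Of 14 coregulator genes, 3 had MR only. They were the coactivator genes Ncoa3 (13.23) and Ncoa2 (5.86) and the arginine methyltransferase gene Prmt1 (9.01).

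The protein-coding genes with most MR peaks and no GR peak were large. Slit3, a ligand of axon guidance that spans 587.3 kb, had 18 MR peaks with −log10 p from 5.86 to 17.77. Fkbp5 had 11 over 118.4 kb, Myo16, an unconventional myosin, 10 over 480.8 kb and Pcbp3, an RNA-binding protein, 10 over 200 kb. Col4a1, the neighbour of Col4a2 on chromosome 8, had 9 over 114.4 kb, up to 21.66. Per kb of gene, Fkbp5 and Col4a1 were thus the densest of these 5. Dlc1 tied with Col4a1 at 9 MR peaks, over 385.4 kb, and was not counted among the 5. Shld1, with 8 over 64.12 kb, was denser than any of them.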

How the data were processed

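The authors trimmed and filtered the ChIP-nexus reads, aligned them to mm10 with Bowtie2, removed PCR duplicates by random barcode, pooled 3 replicates per condition, and called peaks with MACS2 2.1.1.20160309 at a false discovery rate of 0.05 and border pairs with MACE. Deposited peaks have a position, a score (10 times −log10 q), −log10 p and −log10 q. The deposited −log10 q stands under a fold enrichment heading, so column 6, −log10 p, ranked the peaks. Deposited border pairs have positions and a p-value. GR border pairs after CORT have positions only and were not used.

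Peaks were joined by 1 bp in Python 3.11.15 (numpy 2.4.6, pandas 2.3.3, pysam 0.24.0), and shares have 95% Wilson and Newcombe intervals. Median offsets have binomial order-statistic intervals. Motifs were searched on chromosomes 1 to 19, X and Y. With 1 list per condition no p-value was computed. Joins, motif search and intervals were tested on simulated data. Named genes were the 4 the study measured by PCR and Fkbp5, which it displayed, those at the strongest 12, 12 and 8 sites of each class, the 5 with most MR peaks, and list genes with both receptors or up to 5 with MR only. Sites added after their values were seen are those of the passages on the GR list without vehicle or input signal, on Ddit4, on Dkk3 and Prkca, on GR border pairs and the sequences shown. The members, lists and rules were chosen with earlier results of these data known. Alternatives changed the threshold, overlap, gene distance, motif, border pairs and the peaks kept. Some genes that the rule names are not reported here.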

Additional observations from a re-analysis of the deposited data

How the results depend on the processing

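Of 95 alternatives over 20 values, 65 stayed within 1.5 times a count or inside the 95% interval of a share, and 30 moved. With −log10 q of at least 5 in both lists there were 79 sites of both, 30 GR-only sites and 78 genes of both. Against only the strongest MR peaks, as many as GR peaks, 56 sites and 24.6% of GR peaks were shared. With summits within 50 bp, the GR share was 53.5%, the MR share 2.51% and GR-only sites 106. The MR share was 4.34% with receptor exons left in, 4.39% with peaks within 100 bp, 2.96% without peaks on vehicle peaks, 2.97% without those on input border pairs and 2.89% without either. Within 50 kb, 623 genes had both. GRE shares for sites of both, MR only and GR only were 16.4%, 16.1% and 3.77% with at most 2 mismatches, 77.4%, 84.0% and 54.7% with at most 4, and 31.4%, 36.6% and 11.3% within 50 bp, and for the first 2 they were 49.7% and 57.1% within 200 bp. These GRE shares count 1 MR summit per shared site and keep peaks with vehicle or input signal, from main values of 40.25%, 46.05% and 24.5%. Without that signal, the shares per MR peak with at most 4 mismatches were 86.0% for both and 84.1% for MR only. Within 100 bp an input border pair lay at 21.4% of MR peaks of both and 0.642% of MR-only peaks, and an MR border pair at 9.57% of MR-only peaks. With a border pair p of at most 0.01, pairs lay in 34.6% of MR and 12.4% of GR peaks of both. Leaving out chromosome 8, and vehicle and input signal together, was chosen after seeing the data. The cause of these moves was not tested beyond what each alternative changes by construction. No replicate could be left out because each condition is 1 pooled list, and No paired analysis was possible because the columns carry no replicates. Depth, which these lists do not give, limits what a missing GR peak means.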
